A study of Mus musculus with 14 samples.

Results

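The mature lung was set against the earliest stage of the series, by comparing miRNA levels in 2 samples of adult lung with those in 2 samples of lung at embryonic day 12 (E12). The measurements were deposited normalized threshold cycles (ΔCT), the cycle of each miRNA minus that of the small nuclear RNA U6, so that a lower ΔCT is a higher level. Of the 516 deposited assays, 508 were given a miRNA name here, and 237 of the named ones were measured in all 4 samples. These 237 were ranked by the difference of adult and E12. The full series covered 7 time points (E12, E14, E16, E18, postnatal days 2 and 10, and adult) with 2 samples each.

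All groups were ICR mice, an outbred strain, and carry the label female. The paper's methods use female for the mice that were bred, and give no sex for the embryos. The RNA came from pooled whole lungs. The adult group held 2 samples, with no age given in the labels. The E12 group held 2 samples, dated from the day of the plug as day 0. Whether the 2 samples of a group were drawn from separate pools is not given in the sources used here, so that a p-value speaks of the spread of these samples alone, and that spread may be technical. In whole lung, fewer cells of a type and less miRNA per cell cannot be told apart.

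A miRNA is cut from a hairpin precursor, in which either arm can give a mature strand of its own. The mature strand guides a silencing complex to messenger RNAs, mainly through the seed, the bases near its 5′ end that pair with the target, and miRNAs with the same seed form a family. Many miRNA genes lie side by side and are transcribed together as a cluster. The lung at E12 is a branching epithelial tree in mesenchyme with dividing cells, whereas the adult lung has alveoli, a dense capillary bed, ciliated airways and resident leukocytes.

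The deposited values carry assay numbers, which the deposited files do not pair with names. The names used here came from knowledge of the manufacturer's numbering and were kept only where the name was also a mouse detector in the run files, which list 517. Of the 508 names, 232 were recalled one by one and 276 were filled in from the regular spacing of the manufacturer's part numbers. Among the 237 assays measured in all 4 samples, 123 names were recalled and 114 came from the spacing. Among the 30 miRNAs described first below, the spacing gave the names of miR-29a, miR-222, miR-34b-3p, miR-126-3p, miR-223, miR-409-3p, miR-708, miR-18a, miR-130b*, miR-135b and miR-337-3p. An asterisk marks the arm that was the less abundant by the naming of that time.

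Levels were compared with limma's moderated test over all 14 samples, with blanks at a floor of 19.9 cycles, and p-values adjusted by Benjamini-Hochberg over the 350 assays tested. Of these, 86 (24.6%) were higher in the adult and 82 (23.4%) were lower. After each sample was scaled to its mean over the 219 assays measured in all samples (the global mean), 76 (21.7%) were higher and 111 (31.7%) were lower. For the 237 named assays measured in all 4 samples, this scaling lowered every difference by 0.43 on the log2 scale and left the order unchanged. Among them, 72 (30.4%) were higher and 45 (19.0%) were lower, against 64 (27.0%) each way with the global mean. The groups did not overlap for 110 (46.4%) that were higher in the adult and 72 (30.4%) that were lower. The 30 miRNAs described first below were chosen for a call without overlap, so that the lack of overlap is no finding there. Differences are given as adult minus E12 on the log2 scale of the level, so that a positive value is a higher level in the adult.

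The step size of the values bounds what they resolve. On card A between 98.6% and 100% of a sample's values shared 1 decimal within 0.1 cycle, so that most card A values differ by whole cycles, whereas on card B the share was 55.2% to 70.6%. Of the 60 pairs of samples behind the 30 miRNAs below, 20 had an SD under 0.1, as happens where both samples fall on the same step. No run day held both groups on either card, and run day and age cannot be told apart. The median difference of the named assays measured in all 4 samples was 0.91 on card A (172 assays) and 0.18 on card B (65 assays), and 27 of those 30 miRNAs were on card A. The mean ΔCT of the 219 assays was 10.89 and 11.31 in the adult samples, against 11.63 and 11.43 at E12.

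The mature sequences of the families with the largest rises are shown because their members differ by few bases, and an assay could read its neighbour, which was not tested. Sequences are from RefSeq (GRCm38.p6), which held 26 of the 30 miRNAs of largest change, and capitals mark the seed, bases 2 to 8.
miR-29a: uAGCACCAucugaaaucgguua
miR-29c: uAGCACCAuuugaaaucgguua
miR-29b: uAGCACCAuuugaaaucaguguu
miR-146a: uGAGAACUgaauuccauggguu
miR-146b: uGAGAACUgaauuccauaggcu
miR-449a: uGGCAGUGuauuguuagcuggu
miR-449c: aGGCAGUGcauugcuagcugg
miR-34a: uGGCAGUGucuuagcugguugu
miR-195: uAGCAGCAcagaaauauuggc
miR-16: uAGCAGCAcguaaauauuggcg
miR-29a and miR-29c differ at 1 of 22 bases, and miR-146a and miR-146b at 2 of 22, in each case outside the seed. miR-195 and miR-16 differ at 2 of the 21 positions they share from the 5′ end.

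The sequences of the largest falls come mainly from 1 chromosomal interval, and their seeds are shown to set them beside the shared seeds of the proliferation cluster miR-17-92 and its relative miR-106a of the X chromosome.
miR-409-3p: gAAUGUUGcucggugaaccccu
miR-431: uGUCUUGCaggccgucaugca
miR-376a: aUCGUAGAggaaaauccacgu
miR-134: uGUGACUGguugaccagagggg
miR-410: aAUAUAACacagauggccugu
miR-485*: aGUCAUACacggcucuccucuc
miR-539: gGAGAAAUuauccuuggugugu
miR-495: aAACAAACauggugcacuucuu
miR-127: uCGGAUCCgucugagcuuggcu
miR-17: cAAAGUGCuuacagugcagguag
miR-20a: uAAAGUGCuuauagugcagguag
miR-106a: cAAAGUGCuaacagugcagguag
miR-18a: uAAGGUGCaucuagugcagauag
miR-19a: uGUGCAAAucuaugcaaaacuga
miR-19b: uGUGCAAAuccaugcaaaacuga
The first 9, all of chromosome 12, each have a seed of their own. By contrast, miR-17, miR-20a and miR-106a share 1 seed, and miR-19a and miR-19b share another and differ at 1 of 23 bases.

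The miR-29 family held the largest rises. These miRNAs are known to repress collagens and other matrix genes. The level of miR-29a (chr6:31062673-31062694, minus strand) was at a ΔCT of 5.08 and 6.14 in the adult samples and 13.99 and 13.13 at E12. Both adult samples lay far above both E12 samples in level, a difference of 7.95 ± 0.60 (SE) or 247-fold (limma, adjusted p = 9.98e-06). miR-29c (chr1:195037600-195037621, plus strand) was at 9.13 and 10.18 in the adult samples and 17.03 and 17.19 at E12. Its 175-fold rise (7.45 ± 0.52, adjusted p = 6.22e-06) was again without overlap. miR-29b was at 15.13 and 15.15 in the adult samples and blank in both E12 samples, a rise of at least 15.7-fold. All 3 members tested were therefore higher in the adult, against 24.9% of all named assays tested.

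Next came miRNAs of immune cells. miR-146a and miR-146b are known to dampen signalling from Toll-like receptors. miR-146b had a ΔCT of 5.10 and 6.17 in the adult samples, against 13.02 and 12.15 at E12. miR-146a had 5.14 and 5.17 in the adult samples, against 12.02 and 11.15 at E12. Neither pair of groups overlapped, and the rises were 123-fold (6.95 ± 0.48) and 86.5-fold (6.43 ± 0.44), each at an adjusted p of 6.17e-06. miR-150, abundant in mature lymphocytes, was at 5.12 and 6.16 in the adult samples and 13.00 and 12.15 at E12, which was a rise of 122-fold (6.94 ± 0.46, adjusted p = 6e-06). miR-223, a miRNA of myeloid cells, was at 6.11 and 6.14 in the adult samples and 11.02 and 10.16 at E12, a rise of 22.1-fold (4.47 ± 0.32, adjusted p = 7.18e-06). For both, every adult sample was above every E12 sample. All 5 leukocyte miRNAs tested (miR-150, miR-155, miR-223, miR-142-3p and miR-142-5p) were higher in the adult, against 24.9% of all named assays tested. Their median difference was 4.21 over the 4 measured in every sample, against 0.47 for all assays so measured. miR-142-5p was blank in 1 E12 sample, which took the floor.

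The blood cell miRNAs miR-451 and miR-486, which are abundant in red cells, were also higher. miR-451 was at 10.12 and 11.17 in the adult samples and 16.00 and 17.15 at E12, without overlap, a difference of 5.93 ± 0.67 (61.0-fold, adjusted p = 9e-05). miR-486 was at 7.12 and 7.16 in the adult samples and 11.00 and 10.16 at E12, a difference of 3.44. How much blood each lung preparation held was not tested.

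**Figure D1:**
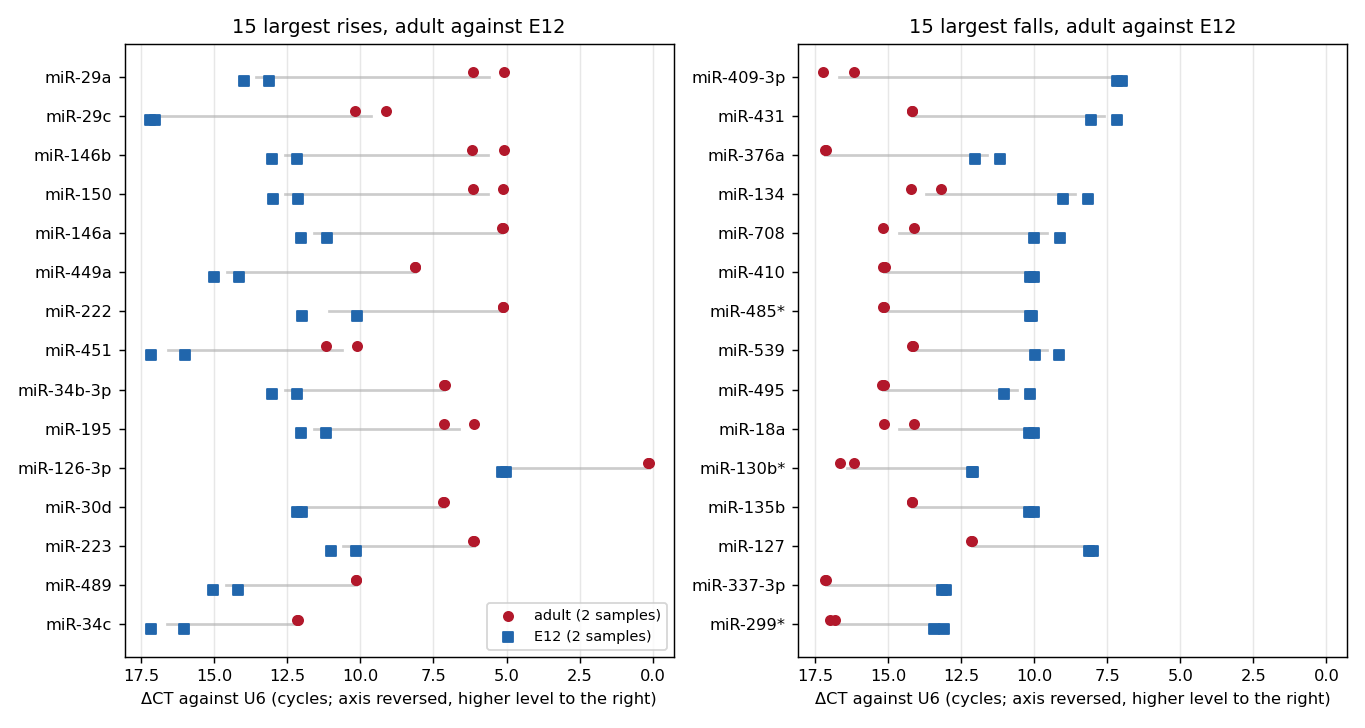
ΔCT against U6 in each of the 4 samples for the 15 named miRNAs with the largest rises and the 15 with the largest falls, adult points and E12 points marked apart, with higher levels towards lower ΔCT. A lack of overlap was a condition of the choice, so that in every line the 2 adult samples lie on the same side of the 2 E12 samples. The changes run from the 247-fold rise of miR-29a to the 779-fold fall of miR-409-3p.

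The family of miR-34 and miR-449, known from multiciliated cells of the airway, rose as a group. miR-449a was at 8.13 and 8.15 in the adult samples and 14.9998 and 14.14 at E12, an 86.4-fold rise without overlap (6.43 ± 0.76, adjusted p = 0.000119). miR-34b-3p was at 7.11 and 7.14 in the adult samples and 13.02 and 12.17 at E12. miR-34c was at 12.15 and 12.17 in the adult samples and 16.03 and 17.18 at E12. Their rises were 44.2-fold (5.47 ± 0.46, adjusted p = 2e-05) and 21.8-fold (4.44 ± 0.53, adjusted p = 0.000121), with the adult samples the higher ones in both. miR-449c was at 13.09 and 13.02 in the adult samples and blank at E12, a rise of at least 66.9-fold. All 6 tested on the list of this family were higher, against 24.9% of all named assays tested. The median of the 4 measured in every sample was 4.96. The list is wider than the seed family, since it holds miR-34b-3p, which has another seed, and miR-34c*, the partner arm of miR-34c. miR-34a was blank in 1 E12 sample, which took the floor, and miR-449b was blank in all 14 samples.

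Endothelial miR-126, which is encoded in an intron of Egfl7 and acts in vessel growth, gave the highest level of any miRNA in the adult lung. Its 3p arm had a ΔCT of 0.13 and 0.15 in the adult samples, against 5.01 and 5.17 at E12, a rise of 30.9-fold (4.95 ± 0.46, adjusted p = 3.23e-05). The 5p arm rose by 3.93. miR-126-3p was already among the 10 highest named miRNAs at E12, where miR-19b was the highest.

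The remaining large rises came from miRNAs of several kinds. miR-222, clustered with miR-221 on the X chromosome and known to target the cell cycle inhibitor p27, was at 5.12 and 5.12 in the adult samples and 12.00 and 10.13 at E12. The rise was 61.7-fold (5.95 ± 0.60, adjusted p = 5.05e-05), whereas miR-221 rose by 1.94. miR-195, of the miR-15/16 family known to repress cell cycle genes, was at 6.11 and 7.14 in the adult samples and 12.02 and 11.17 at E12 (31.3-fold, adjusted p = 9e-05). miR-30d was at 7.15 and 7.16 in the adult samples and 12.01 and 12.18 at E12 (30.8-fold, adjusted p = 2e-05). miR-489, known from quiescent muscle stem cells, was at 10.14 and 10.16 in the adult samples and 15.03 and 14.18 at E12 (21.9-fold, adjusted p = 5.24e-05). None of these 4 had overlapping groups.

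Families did not always move as 1 unit. In the miR-15/16 family, miR-195, miR-16 and miR-497 rose by 4.97, 2.46 and 1.94, the last with an adjusted p of 0.0409. miR-15a, miR-322 and miR-15b, which carry the same or a related seed, differed by 0.96, 0.94 and -0.06 and did not pass the test (adjusted p = 0.16, 0.13 and 0.967). On the list of the miR-30 family, which is common in epithelium, 7 of the 8 assays tested rose, against 24.9% of all named assays tested. Among them were miR-30a (4.43), miR-30e (3.94), miR-30b (2.43) and miR-30c (2.42). The list also counts partner arms of the same hairpins, of which miR-30a* (3.43) and miR-30e* (3.41) rose. The assay that did not pass, miR-30b*, was blank in all 4 samples. The difference between family members was not itself tested.

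All 5 members of the miR-200 family, known to maintain epithelial identity by repressing Zeb1 and Zeb2, were higher in the adult. The share of all named assays tested was 24.9%. miR-200a was at 7.12 and 7.14 in the adult samples and 11.01 and 10.15 at E12, a difference of 3.45. miR-141 differed by 3.45, miR-429 by 2.45, miR-200b by 2.43 and miR-200c by 1.93. The list of epithelial miR-31, miR-375, miR-203 and miR-205 was mixed. Of these 4, 2 were higher and 1 was lower, against 24.9% and 23.5% of all named assays tested. miR-31 rose by 2.45 and miR-375 by 1.44, with miR-375 losing its call with the global mean (adjusted p = 0.0513). miR-203 was at 9.12 and 10.17 in the adult samples and 11.03 and 10.16 at E12, with overlap, and did not pass. miR-205, a miRNA of basal and other stratified epithelium, was blank in both adult samples and at 13.03 and 12.18 at E12.

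The let-7 family, known to rise as cells differentiate, was higher for 5 of the 9 members tested, against 24.9% of all named assays tested. The groups did not overlap in any of the 8 measured in every sample. Of all named assays so measured, 46.4% were higher without overlap. let-7c rose by 3.45, let-7f by 2.98, let-7i by 2.45 and let-7a by 1.95. let-7g, also called, was at 8.14 and 8.15 in the adult samples and at 11.00 in 1 E12 sample. Its other E12 value was blank and took the floor. let-7b was at 11.14 and 11.16 in the adult samples and 16.00 and 15.15 at E12, a difference of 4.43 that did not pass (adjusted p = 0.0881). It was blank in 1 of the 14 samples, and with blanks as missing its adjusted p was 0.000142. With blanks as missing, 83 (35.0%) of the assays measured in all 4 samples were higher and 49 (20.7%) were lower. Of those without overlap, 15 passed only in this way, 11 higher and 4 lower, with let-7d and let-7e among them.

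Muscle miRNAs and miR-21 were listed as well, beside 24.9% higher of all named assays tested. miR-145 and miR-143, of smooth muscle, were higher by 2.47 and 1.44, the second near the threshold (adjusted p = 0.0489). miR-21, an abundant miRNA of many injured and growing tissues, was at 8.13 and 8.17 in the adult samples and 12.04 and 12.19 at E12, a rise of 15.7-fold (adjusted p = 9.47e-05). Of 5 striated muscle miRNAs tested, miR-133a (2.43) and miR-133b (1.96) were higher, and miR-206, of skeletal muscle, was at 19.35 and 18.50 in the adult samples and 15.13 and 16.59 at E12, without passing the test. The liver miRNA miR-122 and the neural miR-124 were blank in all 4 samples, and 0 of the 3 miRNAs of liver and nervous system that were tested passed against U6. With the global mean, the neural miR-9 and miR-137 were lower (adjusted p = 0.043 and 0.0101).

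**Figure D2:**
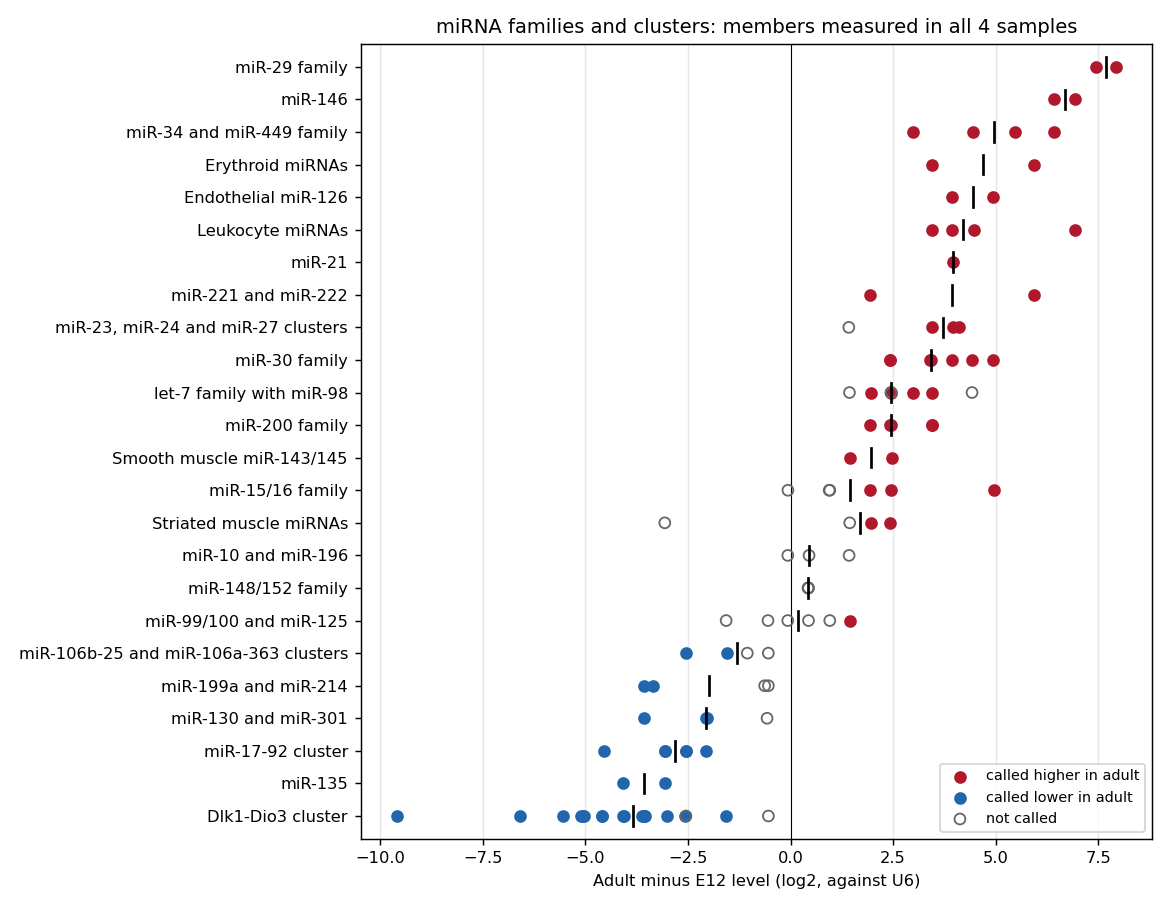
Adult minus E12 difference in level (log2 scale, against U6) for the list members measured in all 4 samples, 1 point per miRNA, filled where called and open where not, with a bar at the median of the list. Not drawn are the lists of miR-26, the miR-181 family, the miR-183 cluster, epithelial miR-31, miR-375, miR-203 and miR-205, and other tissues. The miR-29, miR-34 and leukocyte lists lie to the higher side and the Dlk1-Dio3 and miR-17-92 lists to the lower side.

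The falls were led by the imprinted Dlk1-Dio3 region of chromosome 12, whose miRNAs are transcribed from the maternal chromosome and are known for expression in embryo and placenta. miR-409-3p was at a ΔCT of 16.17 and 17.21 in the adult samples and 7.00 and 7.16 at E12. The E12 samples were the higher ones by about 9 cycles or more, and the fall was 779-fold (-9.61 ± 0.43, adjusted p = 6.64e-07). miR-431 was at 14.19 and 14.19 in the adult samples and 8.04 and 7.17 at E12, a fall of 96.2-fold (-6.59 ± 0.45, adjusted p = 6.17e-06). miR-376a was at 17.14 and 17.15 in the adult samples and 12.03 and 11.17 at E12 (46.6-fold lower, adjusted p = 2.71e-05). miR-134, known in neurons as a regulator of dendritic spines, was at 13.18 and 14.20 in the adult samples and 9.02 and 8.15 at E12 (34.3-fold lower, adjusted p = 5.05e-05). In each of these the groups stood apart.

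The same region gave 7 further members of the 15 largest falls. miR-410 was at 15.12 and 15.16 in the adult samples and 10.00 and 10.15 at E12, a difference of -5.06. miR-485* was at 15.14 and 15.17 in the adult samples and 10.15 and 10.08 at E12, a difference of -5.04. miR-539 was at 14.14 and 14.17 in the adult samples and 9.99 and 9.13 at E12, a difference of -4.60. These 3 fell by 24.2-fold to 33.5-fold, with no overlap. miR-495 was at 15.14 and 15.20 in the adult samples and 11.01 and 10.14 at E12 (-4.59). miR-127, which is antisense to the retrotransposon-derived gene Rtl1, was at 12.13 and 12.15 in the adult samples and 7.98 and 8.14 at E12 (-4.08). miR-337-3p was at 17.12 and 17.15 in the adult samples and 13.01 and 13.16 at E12 (-4.05). miR-299* was at 16.80 and 16.97 in the adult samples and 13.08 and 13.43 at E12 (-3.63), and all 4 passed the test with the E12 samples above the adult ones.

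On the list of this region drawn up by name, 32 of the 44 members tested were lower and 0 were higher. By position, the interval chr12:109563692-109743795 (GRCm38.p6) held 44 hairpins, to which 63 named assays belong. Of the 45 tested, 33 were lower in the adult and 0 were higher, against 23.5% lower and 24.9% higher of all named assays tested. All 20 measured in every sample were negative and without overlap, with a median of -3.84, and 18 of them were among the 45 falls of the assays measured in all 4 samples. A further 11 were blank in both adult samples and measured in both E12 samples, and 0 the other way round. Names recalled one by one gave 17 lower of 24 tested in this interval, and names from the spacing gave 16 of 21. Hairpins closer than 10000 bases formed a group of 11 around Rtl1 with a median of -3.81, and a group of 32 further along with a median of -4.11.

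The size of the fall varied within the interval. miR-667 was at 10.10 and 10.11 in the adult samples and 10.00 and 9.13 at E12, a difference of -0.54 that did not pass (adjusted p = 0.282). miR-136 fell by 1.57 (adjusted p = 0.0409). miR-376b, which differs from miR-376a at 3 of 21 bases, was at 13.14 and 14.17 in the adult samples and 11.04 and 11.17 at E12 and passed only with blanks as missing (adjusted p = 0.336, against 0.000675). miR-379 was at 13.11 and 13.14 in the adult samples and at 9.14 in 1 E12 sample. Its other E12 value was blank, so that the floor gave it a difference of 1.37 in the opposite direction (adjusted p = 0.68).

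**Figure D3:**
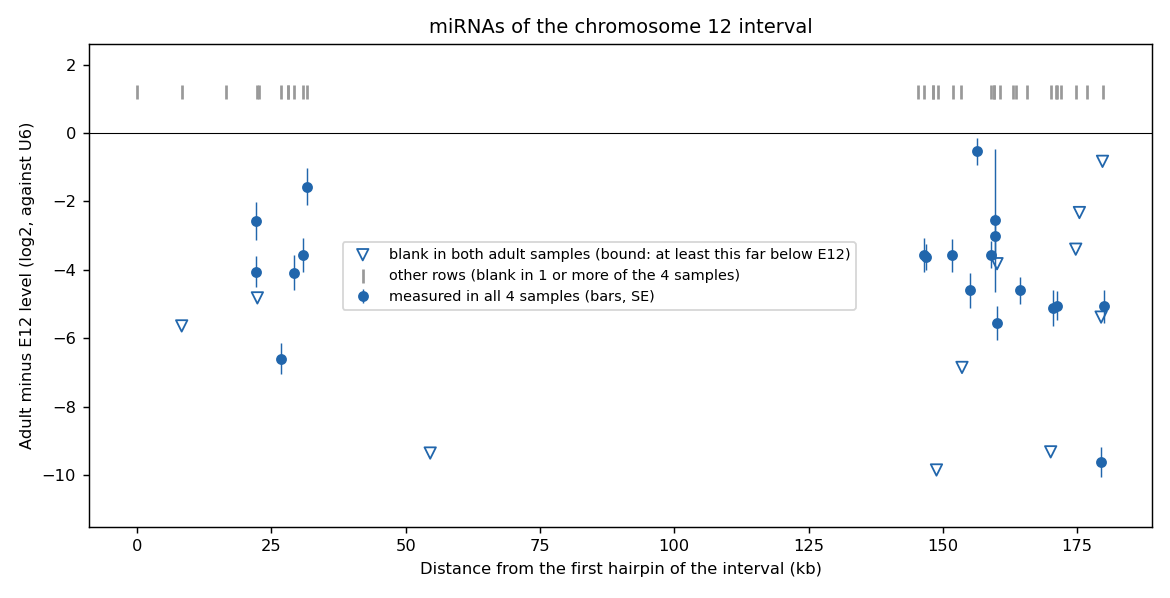
Adult minus E12 difference (log2 scale) of the named assays of the chromosome 12 interval against distance from its start in kilobases. Filled points were measured in all 4 samples (bars, SE), open triangles are bounds for assays blank in both adult samples, and grey ticks mark the positions of the other assays and carry no value. All 20 assays measured in every sample lie below 0.

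Outside chromosome 12, the falls included miRNAs of proliferating and progenitor cells. The miR-17-92 cluster on chromosome 14, a target of Myc that promotes lung epithelial progenitor growth, was lower in the adult for all 6 members. The share of all named assays tested was 23.5%. miR-18a was at 14.13 and 15.15 in the adult samples and 10.00 and 10.17 at E12, a fall of 23.5-fold (-4.55 ± 0.41, adjusted p = 2.7e-05). miR-17 was at 6.11 and 7.15 in the adult samples and 3.996 and 3.14 at E12 (-3.06, adjusted p = 0.000468). miR-19b was at 5.13 and 6.16 in the adult samples and 3.003 and 3.18 at E12 (-2.56). The other members, miR-20a, miR-19a and miR-92a, fell by 3.07, 2.55 and 2.06, and in all 6 the E12 samples were the higher ones. miR-19b has a copy on the X chromosome too, which the assay cannot tell apart. Of the related clusters, miR-106a fell by 2.56 and miR-93 by 1.55, and miR-106b at -1.05 did not pass (adjusted p = 0.0883; 0.00783 with the global mean).

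The other large falls were those of miR-708, miR-130b* and miR-135b. miR-708, encoded in an intron of Tenm4, was at 14.10 and 15.16 in the adult samples and 10.00 and 9.13 at E12 (33.6-fold lower, adjusted p = 9e-05). miR-130b* was at 16.17 and 16.64 in the adult samples and 12.10 and 12.12 at E12 (19.6-fold lower, adjusted p = 9e-05). miR-135b was at 14.17 and 14.18 in the adult samples and 10.00 and 10.16 at E12 (17.0-fold lower, adjusted p = 7.88e-05). Their relatives fell too, miR-130b by 3.56, miR-301a by 2.05, miR-301b by 2.07 and miR-135a by 3.06. miR-214, a miRNA of mesenchyme, fell by 3.56 and its partner arm miR-214* by 3.34, whereas miR-199a-3p was at -0.54 and did not pass. The miR-199a-3p copy on chromosome 1 is transcribed with miR-214, but another lies on chromosome 9, and the assay cannot tell them apart.

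Some miRNAs were measured in both samples of 1 group and in neither of the other. There were 8 such assays of the adult, against 34 of E12, of which 33 were named. miR-466d-3p had the largest bound, with blanks in both adult samples and a ΔCT of 5.19 and 4.43 at E12, at least 17753-fold lower in the adult (adjusted p = 0.0437). However, miR-466d-3p was at 4.93 and blank in the 2 samples of E16, and blank and at 3.02, its highest level, in those of P10. It was measured in 6 of the 14 samples, and leaving out any 1 of the 4 samples ended its call (adjusted p = 0.126 to 0.145, with the lone sample of a group assumed to vary like the other groups). Blank in both adult samples as well were miR-696, at 8.05 and 7.46 at E12 (at least 2305-fold lower in the adult), and miR-323-3p, at 8.999 and 9.17 (at least 917-fold). So were miR-370, at 10.02 and 9.14 at E12 (at least 651-fold lower in the adult), and miR-382, at 10.02 and 9.20 (at least 636-fold). miR-323-3p, miR-370 and miR-382 lie in the chromosome 12 interval. Of the pluripotency cluster of miR-302 and miR-367, miR-302a and miR-302b were measured in the 2 E12 samples alone of the 14. The other members did not share this pattern. miR-367 was measured in both E12 samples and in both E14 samples. miR-302d was blank at E12 and measured only in E14 sample 1, at 14.04. miR-302c* was measured only in E14 sample 2, and miR-302c and miR-302a* were blank in all samples.

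Among those of the adult were miR-449c and miR-29b, given above, and 3 others of the named 5. miR-146b*, the partner arm of miR-146b, was at 14.68 and 12.95 in the adult samples and blank in the other 12 (at least 39.5-fold higher in the adult than at E12). miR-547 was at 14.12 and 14.15 in the adult samples (at least 31.6-fold). miR-29a*, the partner arm of miR-29a, was at 15.12 and 16.01 (at least 11.7-fold). Each bound puts a blank at the highest ΔCT measured in the same sample, and applies only if the blank stands for a low level, since a reaction can also fail. Blanks also occurred at well measured miRNAs, such as miR-26a, which was at 5.14 and 5.17 in the adult samples and at 8.17 in 1 E12 sample and blank in the other.

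Lists not described above held few calls or mixed ones, beside 24.9% higher and 23.5% lower of all named assays tested. No list was tested against these shares. Of the miR-23, miR-24 and miR-27 list 4 of 5 tested were higher, with miR-27a at 3.97 and miR-24 at 3.44, and of the miR-26 list 1 of 2. These calls include miR-23b and miR-26a, each blank in 1 E12 sample, which took the floor. Of the miR-181 family 1 of 2 was higher, and of the miR-99, miR-100 and miR-125 list 1 of 6. The miR-10 and miR-196 list, the miR-148 and miR-152 list and the miR-183 cluster, of sensory epithelia, each had 0 of 3 called against U6, and 1 of the miR-183 cluster was lower with the global mean. Of the miR-130 and miR-301 list 3 of 4 were lower, of the miR-199a and miR-214 list 2 of 5, and of the relatives of the miR-17-92 cluster 3 of 6.

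The miRNAs of highest level changed with age. In the adult miR-126-3p was followed by miR-24, then miR-16, miR-145, miR-484, miR-30c, miR-126-5p, miR-191, miR-222 and miR-146a, with mean ΔCT values of 0.14 to 5.15. At E12 it ran miR-19b, miR-17, miR-709, miR-466d-3p, miR-106a, miR-126-3p, miR-24, miR-484, miR-20a and miR-16, from 3.09 to 5.59. miR-16, miR-24, miR-126-3p and miR-484 were in both. Neighbours in these orders often differ by less than 1 cycle, the step of the values, and levels of different assays carry the efficiency of each assay.

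**Figure D4:**
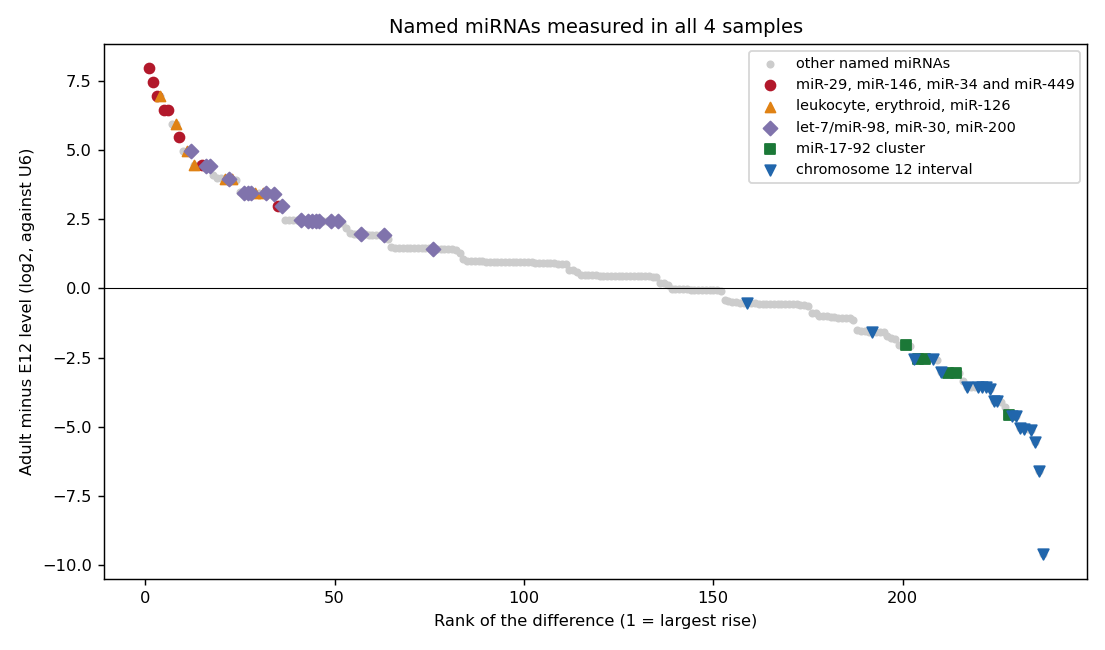
Adult minus E12 difference (log2 scale) of the 237 named miRNAs measured in all 4 samples, against its rank from the largest rise to the largest fall, with levels against U6 and families marked by colour and shape. The chromosome 12 interval and the miR-17-92 cluster lie below 0, and with the global mean all points would lie 0.43 lower in the same order.

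Clusters on other chromosomes gave the background for chromosome 12. The miR-34b/c pair on chromosome 9 (median 4.44), the miR-23a/27a/24-2 cluster on chromosome 8 (3.97) and the cluster of miR-200b, miR-200a and miR-429 on chromosome 4 (2.43) were higher. The miR-24 sequence is also encoded in the miR-23b/27b/24-1 cluster on chromosome 13, where the median was 0.89 and the assay cannot assign its product to a locus. The miR-130b/301b pair on chromosome 16 (-3.56) and the miR-25/93/106b cluster on chromosome 5 (-1.04) were on the lower side. The miR-99b/let-7e/125a cluster on chromosome 17 was spread from -1.57 to 2.46.

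A miRNA could be set beside an assay of a partner arm for 47 pairs, 36 of them with an arm on each card. Not every pair is of a single hairpin, since some miRNAs, such as miR-24, miR-16 and miR-181a, are encoded at more than a single locus. miR-24 was paired with both miR-24-1* and miR-24-2*. The arms had the same sign in 34 pairs, 32 with the global mean. In 13 pairs both arms passed the test, 9 higher and 4 lower, and 0 pairs passed in opposite directions. miR-126, miR-30a, miR-30e and miR-200b were among the pairs higher in the adult, and miR-214, miR-130b, miR-20a and miR-337 were the 4 that were lower. Among the pairs of opposite sign were miR-181a, at 1.40 (adjusted p = 0.0627), and miR-181a-1*, which fell by 1.82 (adjusted p = 0.00191). miR-16 rose by 2.46 while miR-16* was at -0.87 without passing. Since miR-181a and miR-16 each come from more than a single hairpin, these opposite signs cannot be placed in a single precursor.

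The total change was also divided into the 6 successive steps of the course. Against U6, of the 15 largest rises, the widest successive step was E18 against E16 for 7, adult against P10 for 4, E16 against E14 for 3 and P10 against P2 for 1. With the global mean it was E18 against E16 for 3 and adult against P10 for 7. Of the 15 largest falls it was P2 against E18 for 6, P10 against P2 for 5 and adult against P10 for 4 against U6, and with the global mean P2 against E18 for 3 and P10 against P2 for 7. At E18 against E16, 6 of the 15 rises passed (4.64% of all named assays rose there), and at P2 against E18, 13 of the 15 falls passed, where 23.2% of all named assays fell. With the global mean these counts of calls were 4 and 4. At P10 against P2, 7 of the falls passed (6.09% of all named assays fell), and at adult against P10, 6 rises and 6 falls did (3.77% rose and 2.90% fell). The comparisons of neighbouring steps share samples with each other and with the total.

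Single miRNAs took different courses to the adult value. miR-29a had mean ΔCT values of 13.56 at E12, 12.65 at E14, 11.63 at E16, 8.55 at E18, 8.69 at P2, 9.06 at P10 and 5.61 once adult, with called rises at E18 against E16 (3.08) and at adult against P10 (3.45). miR-449a had its highest level at E18 (5.08), above the adult (8.14) and E12 (14.57). miR-409-3p stayed between 7.08 and 8.18 up to E18 and reached 10.24 at P2, then 14.58 at P10 and finally 16.69 in adult lung. Its level fell by 4.34 at P10 against P2 (adjusted p = 0.000295). miR-708 was at 10.05 at P10 and fell by 4.58 in the adult against P10 (adjusted p = 0.00279). miR-489 lay between 13.09 and 15.73 up to P10 and was at 10.15 in the adult.

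**Figure D5:**
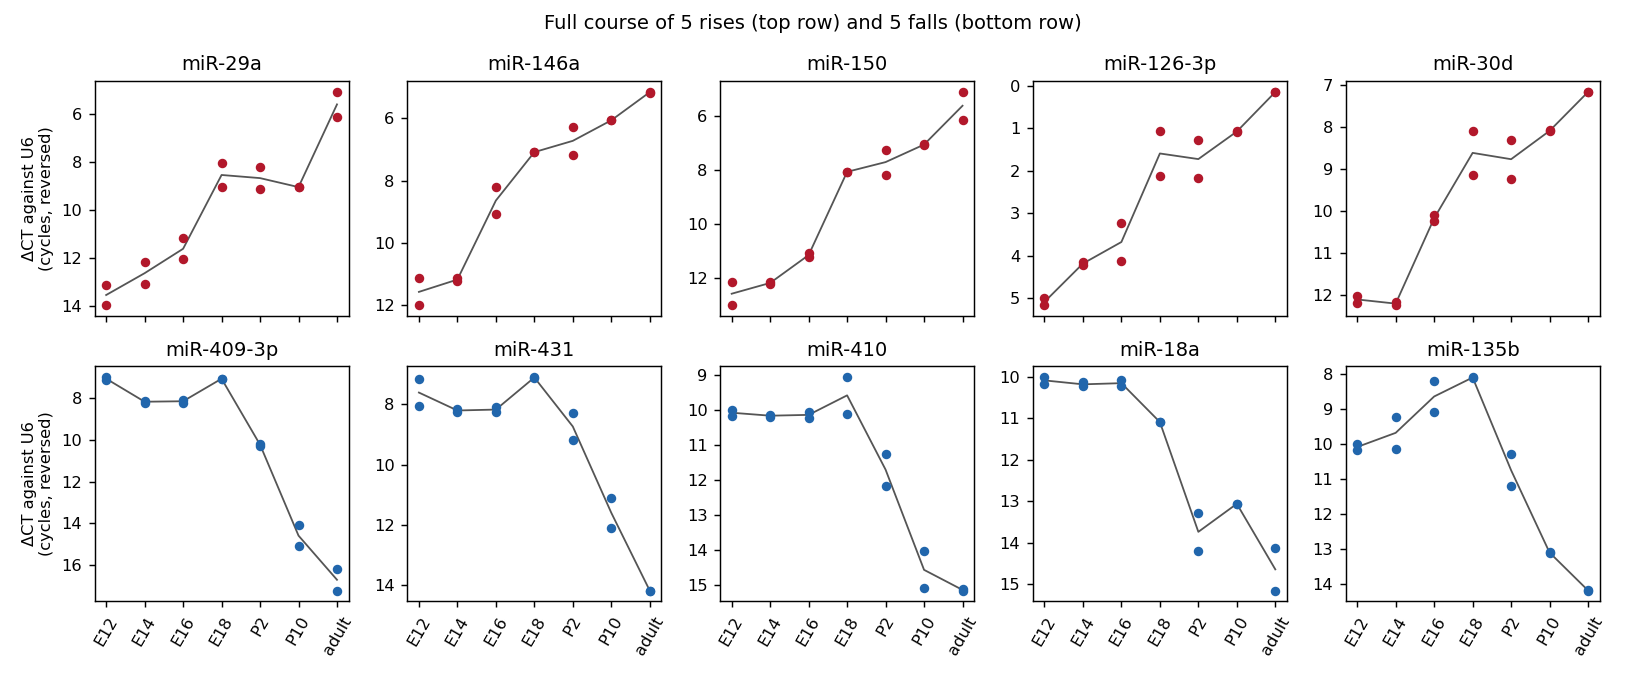
ΔCT of both samples (points) and their mean (line) at each of the 7 time points, E12 to adult, for 5 rises and 5 falls, on reversed axes of different ranges so that a higher level is further up. miR-29a climbs mainly up to E18 and again in the adult, and miR-409-3p leaves its embryonic level after E18.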

How the data were processed

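Total RNA of pooled lungs was run on TaqMan Rodent MicroRNA Array cards A and B. The authors computed and deposited ΔCT against U6, which their methods treat as log2 values, in place of the CT itself. The methods set undetermined reactions, and CT values above an upper limit, to that limit, whereas the deposited values hold blanks. Which deposited values of low level lie past that limit cannot be seen from ΔCT alone. The 28 run files give the plate layout and run order alone. The values are not counts and have no depth, and 2 samples per group limit the precision.

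The level was taken as minus ΔCT. Values under 0.001 (5 cells) were set to missing. An assay was kept if both samples of any time point had a value, and blanks took the highest deposited value. A linear model with 1 mean per time point was fitted to all 14 samples with limma 3.58.1 in R 4.3.3, two-sided, and called at an adjusted p below 0.05. Fold is 2 to the power of the difference. The procedure was tested on simulated data. Tables were made in Python 3.11.15 with pandas 2.3.3.

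The text names the 15 largest rises and falls among named assays measured in all 4 samples, called and without overlap, the 10 largest with the global mean, the 5 largest each way among assays blank in 1 group, the 10 highest in each group, and members of 29 lists. Members and lists were chosen with earlier results of these data known. Assays and intervals named as exceptions were chosen after their values were seen. The alternatives were other scalings, filters, blank rules and tests, run day and replicate blocks, and leaving out samples. The replicate numbers were tested for pairing over 21 pairs of time points.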

Additional observations from a re-analysis of the deposited data

How the results depend on the processing

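The counts of adult and E12 calls over all assays, named miRNAs, assays measured in all 4 samples and the lists together stayed within 1.5 times their values under the alternatives run. There were 167 calls among the named miRNAs, against 185 with the global mean, 186 with a mean per card, 149 with blanks as missing, 148 by the methods' ordinary test, 146 with only the 4 samples in the fit, 146 with card A run day and 228 with card B run day as a random block. Leaving out 1 sample gave 140 to 150 calls for the named miRNAs, 142 to 153 over all assays (against 168), 96 to 103 for those measured in all 4 samples (against 117) and 95 to 98 on the lists (against 105), with the lone sample left in a group assumed to vary like the other groups. The replicate number as a block gave 154, 155, 106 and 101 calls. The replicate numbers did not pair the samples, since the correlation of deviations over 21 pairs ran from -0.416 to 0.243, with -0.003 for adult and E12. The block with the global mean (178 named), the order with a mean per card and all alternatives for the lists were chosen after seeing the data. The global mean moves every difference of the assays measured in all 4 samples by the same 0.43, so that their order could not change. With it the 30 named miRNAs all kept their place among the largest 15 each way, and 27 did with a mean per card. The steps called for them numbered 41, against 38 with the global mean, and 54 against 45 over all 52 miRNAs whose steps were tabulated. Single steps moved more, such as P2 against E18, with 13 falls against 4 with the global mean. Of 906 values for 52 single miRNAs, 891 kept their direction and call, 0 reversed, and 15 lost the call, all from miR-466d-3p, miR-484 and miR-709. miR-709 lost its call without adult sample 1, adult sample 2 or E12 sample 1 (adjusted p = 0.0595, 0.0637 and 0.104), and miR-466d-3p without any of the 4. With a mean per card miR-484 was at 0.85 (adjusted p = 0.0738). The causes were not tested.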
